A study of Mus musculus with 8 samples.

Results

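The 36 genes described here encode ATF4, its targets and the sensors, chaperones and degradation factors of the endoplasmic reticulum stress response. They were picked by name, with earlier results of these data known. Each was found on the array through the transcript accession of its probes. All 36 had a probe, 51 probes in all, out of 22911 genes of the array that carried a symbol. To be tested, a feature had to exceed background clearly on all arrays of 1 group or more. This held for 34 of the 36 genes, among 14718 tested genes with a symbol and 25352 tested features, which include unnamed transcripts. Stc2, a secreted stress glycoprotein gene, and Derl3, which encodes a derlin of the degradation pathway, were not well above background on any array and were not tested. By role the list holds 4 genes for the 3 stress sensors and Xbp1, 12 for ATF4 and targets of its arm, 15 for chaperones and folding enzymes and 5 for degradation factors.

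The cells were TEC71, an immortalized line of mouse medullary thymic epithelium, and total RNA was measured on 8 single-colour Agilent mouse arrays. The control group, 3 arrays, held cells transfected with Cas9n, a nickase form of Cas9, and one guide RNA. The group knockin#1, 3 arrays, was clone 1 of cells with the Gtf2i T1211A point mutation, and knockin#3, 2 arrays, was clone 3 with the same mutation. Each knock-in group is a single clone, so its arrays carry the spread of that clone and not of the genotype. The labels do not say whether the arrays of a group came from separate cultures, and the p-values then measure only the spread between these arrays. Both clones were compared with the same 3 controls, so the comparisons with control are not independent of each other.

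Proteins that enter the secretory pathway fold in the endoplasmic reticulum, and misfolded protein there activates the sensors IRE1 (gene Ern1), PERK (gene Eif2ak3) and ATF6. IRE1 splices the Xbp1 message, ATF6 is cut in the Golgi and enters the nucleus, and both drive genes for chaperones and degradation factors. PERK phosphorylates eIF2 alpha, which lowers general translation and raises translation of the Atf4 message, so that ATF4 activity can change without a change of Atf4 RNA. Gtf2i encodes TFII-I, which is known to bind the endoplasmic reticulum stress element of the Hspa5 promoter together with NF-Y and YY1. An array probe reads the amount of a transcript, not its splicing or translation, nor the edited base.

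All 8 arrays shared 1 slide and 1 scan time. Row 1 of the slide held the 3 controls and replicate 1 of knockin#1, and row 2 held the other 4 arrays. A fit that blocks on the row was run too. In it, as in a fit within row 1, knockin#1 against control rests on 1 knock-in array, replicate 1. Both fits therefore give the same difference and are not separate checks. The row effect of the blocked fit comes only from knockin#1, as replicate 1 against replicates 2 and 3. Every blocked difference of knockin#3 from control therefore hangs on knockin#1 replicate 1 too. That array's brightest spike-in signal was 2784, against 17227 to 29324 on the others. Of the 56605 probes, 55.3% to 59.3% were well above background on an array. Levels below are log2 signals minus the array's 75th percentile, and the number of arrays limits their precision. The edited gene Gtf2i was at 4.41 ± 0.05 in the controls (SD, n = 3), 3.96 ± 0.07 in knockin#1 (SD, n = 3) and 3.82 ± 0.03 in knockin#3 (SD, n = 2). Of 20 thymic epithelial markers, 15 were above background on all 8 arrays, Aire on some, and Pax1, Ccl21a, Psmb11 and Fezf2 on none. The summed linear level of 8 leukocyte markers was 4.48 to 5.08 in the controls, 6.01 to 7.51 in knockin#1 and 6.38 to 6.94 in knockin#3, with Cd3g, Adgre1 and Itgax on no array and 4 of the 8 on every array. For 8 fibroblast markers the sums were 0.962 to 1.21, 0.466 to 0.624 and 0.482 to 0.557, with Pdgfrb, Thy1, Dcn and Lum on no array. For 5 endothelial markers they were 0.23 to 0.305, 0.193 to 0.264 and 0.249 to 0.254, with only Pecam1 above background. The part of these markers in the results below was not tested.

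Promoter sequences are shown because the chaperone genes of the list are textbook targets of 1 short element. They come from the RefSeq promoter table of GRCm38.p6, 250 bases before to 50 after each start, which matched 32 of the 36 genes by symbol; Atf6, Eif4ebp1, Hyou1 and Manf were not matched. The endoplasmic reticulum stress element, ERSE, was searched as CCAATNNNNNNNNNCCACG on both strands. A promoter with it was found for 9 of the 32 genes and for 37 of all 27025 genes of the table (0.137%). The matches are printed in the direction of the element, with the fixed bases in capitals and the spacer in lower case.
Hsp90b1, outer match: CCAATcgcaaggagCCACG
Hsp90b1, inner match: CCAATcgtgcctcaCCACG
Calr: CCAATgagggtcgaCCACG
Creld2: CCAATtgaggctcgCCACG
Hspa5: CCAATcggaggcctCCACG
Pdia6: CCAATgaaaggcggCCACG
Dnajc3: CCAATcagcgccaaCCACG
Canx: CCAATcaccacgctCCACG
Syvn1: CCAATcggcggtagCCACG
Derl3: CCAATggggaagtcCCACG

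Hsp90b1 alone among them held 2 matches. The related ERSE-II element, ATTGGNCCACG, was found for 1 of the 32 genes, Herpud1, and for 12 of all genes (0.0444%). The element TGACGTGG, bound by XBP1 and ATF6, was found for 0 of the 32 and for 193 of all genes (0.714%). The CARE element TGATGNAA, a composite site for ATF4 with C/EBP partners, was found for 4 of the 32 (Chac1, Herpud1, Nupr1 and Trib3) and for 1219 of all genes (4.51%). Only Herpud1 held matches of 2 elements, and these did not overlap. A match is a description of the letters and no evidence of binding.

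The upstream 250 bases of 5 genes are shown because they carry these elements and the brightest probes of the genes differed in direction. For Canx the direction rests on that probe alone. ERSE or CARE matches are in capitals on the strand of the gene.
Calr (chr8:84846932-84847181, strand -): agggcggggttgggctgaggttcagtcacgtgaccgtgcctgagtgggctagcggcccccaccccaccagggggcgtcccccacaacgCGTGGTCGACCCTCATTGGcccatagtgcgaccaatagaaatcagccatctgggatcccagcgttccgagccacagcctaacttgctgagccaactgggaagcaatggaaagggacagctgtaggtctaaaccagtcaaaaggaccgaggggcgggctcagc
Hsp90b1 (chr10:86705445-86705694, strand -): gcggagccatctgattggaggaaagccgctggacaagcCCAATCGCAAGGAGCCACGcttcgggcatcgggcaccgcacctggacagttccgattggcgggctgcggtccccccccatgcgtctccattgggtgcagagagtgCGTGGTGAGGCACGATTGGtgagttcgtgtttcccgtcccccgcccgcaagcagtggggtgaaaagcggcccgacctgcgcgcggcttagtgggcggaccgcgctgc
Canx (chr11:50325674-50325923, strand -): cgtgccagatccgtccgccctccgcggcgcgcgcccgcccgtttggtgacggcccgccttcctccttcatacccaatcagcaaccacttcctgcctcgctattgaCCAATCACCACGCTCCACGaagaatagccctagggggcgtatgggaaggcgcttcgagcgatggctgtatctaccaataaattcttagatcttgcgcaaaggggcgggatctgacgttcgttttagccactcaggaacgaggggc
Nupr1 (chr7:126625471-126625720, strand -): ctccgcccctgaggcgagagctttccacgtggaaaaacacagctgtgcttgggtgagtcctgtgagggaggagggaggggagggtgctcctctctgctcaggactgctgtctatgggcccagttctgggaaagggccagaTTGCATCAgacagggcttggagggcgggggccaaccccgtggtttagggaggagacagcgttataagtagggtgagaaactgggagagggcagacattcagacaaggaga
Chac1 (chr2:119350992-119351241, strand +): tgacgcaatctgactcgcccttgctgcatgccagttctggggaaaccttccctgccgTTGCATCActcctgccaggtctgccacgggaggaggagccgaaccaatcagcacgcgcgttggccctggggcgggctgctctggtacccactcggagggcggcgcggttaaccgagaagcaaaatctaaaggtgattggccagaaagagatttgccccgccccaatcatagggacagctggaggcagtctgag

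The comparison of knockin#1 with control asks which stress genes differ in the first mutant clone. Calr, a lectin chaperone that binds calcium, and the chaperone genes Hyou1, Hsp90b1, Sdf2l1 and Creld2 rose, as did the sensor genes Eif2ak3 and Atf6 and the ATF4-arm genes Ddit3, Ppp1r15a and Chac1. Nupr1, a small chromatin protein gene induced by stress, fell. By limma's test with Benjamini-Hochberg adjustment over all features, 10 of the 34 tested genes were higher (29.4%), 1 was lower (2.94%) and 23 did not pass. Of all 25352 features 14.7% were higher and 16.5% lower, 31.1% in total, so the total share of 32.4% among the stress genes was near that of all features. Among genes with a symbol 19.4% were higher and 16.7% lower. The median difference was 0.21 log2 over the 34 genes, -0.05 log2 over all features and 0 log2 over genes with a symbol. Control and knockin#1 levels did not overlap for 23 of the 34 genes, against 46.5% of all features and 7856 of the 14718 genes with a symbol.

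In knockin#3 fewer of these genes passed. Calr, Ddit3, Creld2, Hyou1 and Sdf2l1 rose, and Nupr1 and the brightest probes of Canx and Edem1 fell. Limma called 5 of 34 genes higher (14.7%) and 3 lower (8.82%), against 13.3% and 17% of all features and 30.2% in total. The share called higher was thus near that of all features, and the total of 23.5% was below theirs. Among genes with a symbol 17.8% were higher and 15% lower, 32.8% in total. The median difference was 0.13 log2, against -0.04 log2 over all features and 0.02 log2 over genes with a symbol. Levels did not overlap for 20 of the 34 genes, against 55.7% of all features and 8775 of the 14718 genes with a symbol.

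The clones were also compared directly, knockin#3 minus knockin#1. Limma called 0 of the 34 genes after adjustment, where 0.0434% of all features were called higher and 0.0316% lower, 0.0749% in total. At an unadjusted p under 0.05, 3 of the 34 genes were lower and 0 higher, against 1702 lower and 1031 higher of all 25352 features. The 3 were Eif2ak3 at -0.33 log2 (95% interval -0.59 to -0.08, adjusted p = 0.365), Hsp90b1 at -0.29 log2 (-0.58 to -0.01, adjusted p = 0.456) and Edem1 on its brightest probe at -0.66 log2 (-0.95 to -0.38, adjusted p = 0.135). The other Edem1 probe differed by 0.01 log2 between the clones. A call in one clone and not in the other is therefore not shown to be a difference between them for any of the 34 genes. The median difference was -0.08 log2, and levels of the clones did not overlap for 15 genes, against 28.5% of all features.

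**Figure D1:**
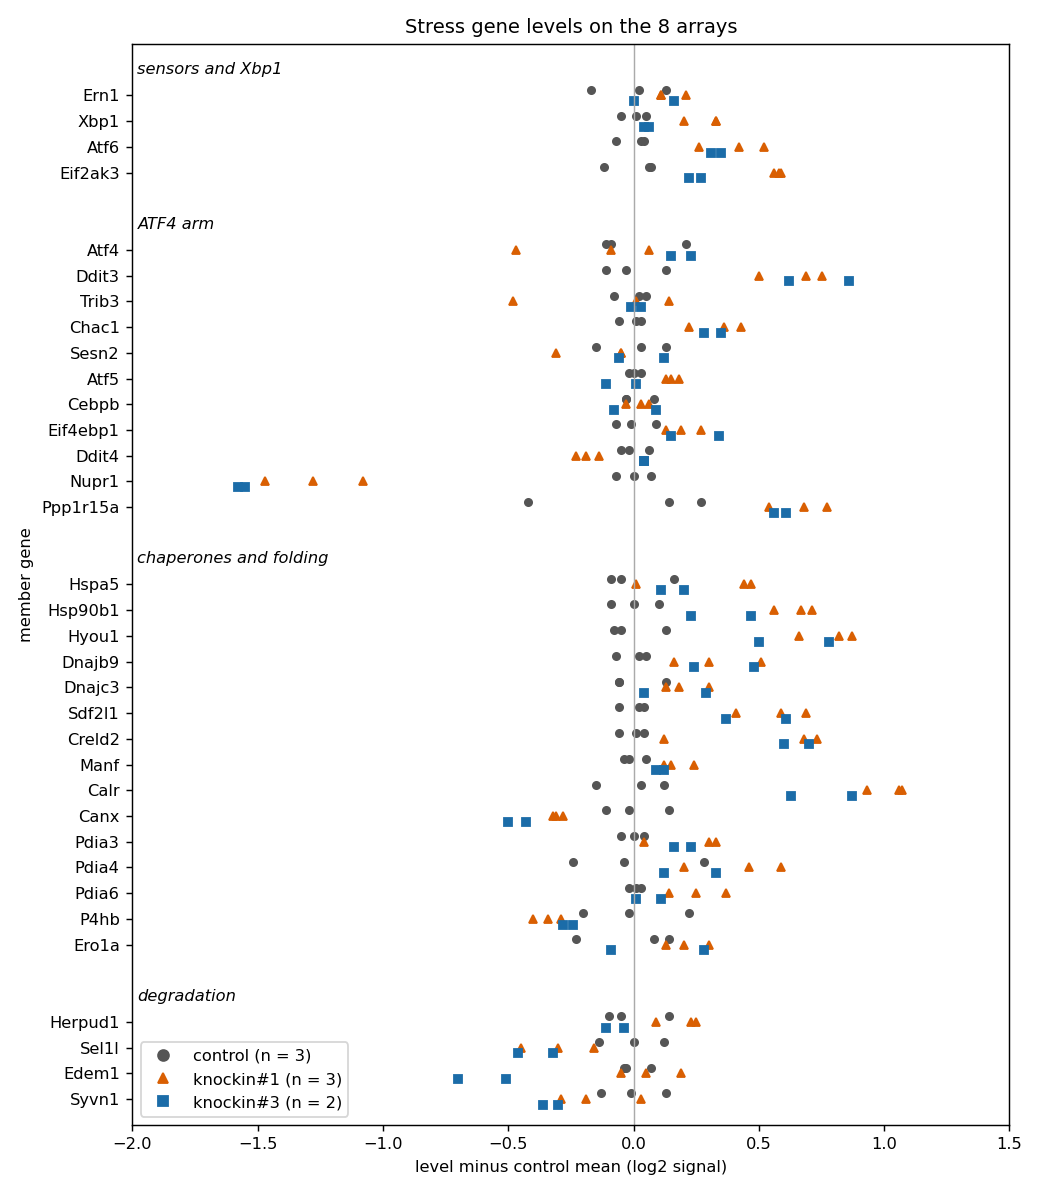
Level of each tested stress gene on each array minus the mean of the 3 controls (x axis, log2 signal), with genes grouped by role (y axis); grey circles are control, orange triangles knockin#1 and blue squares knockin#3 arrays. Nupr1 lies far left of the controls on all 5 knock-in arrays, Calr, Hyou1 and Ddit3 lie right of them, and Atf4, Trib3, Sesn2 and Cebpb overlap the controls in both clones.

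**Figure D2:**
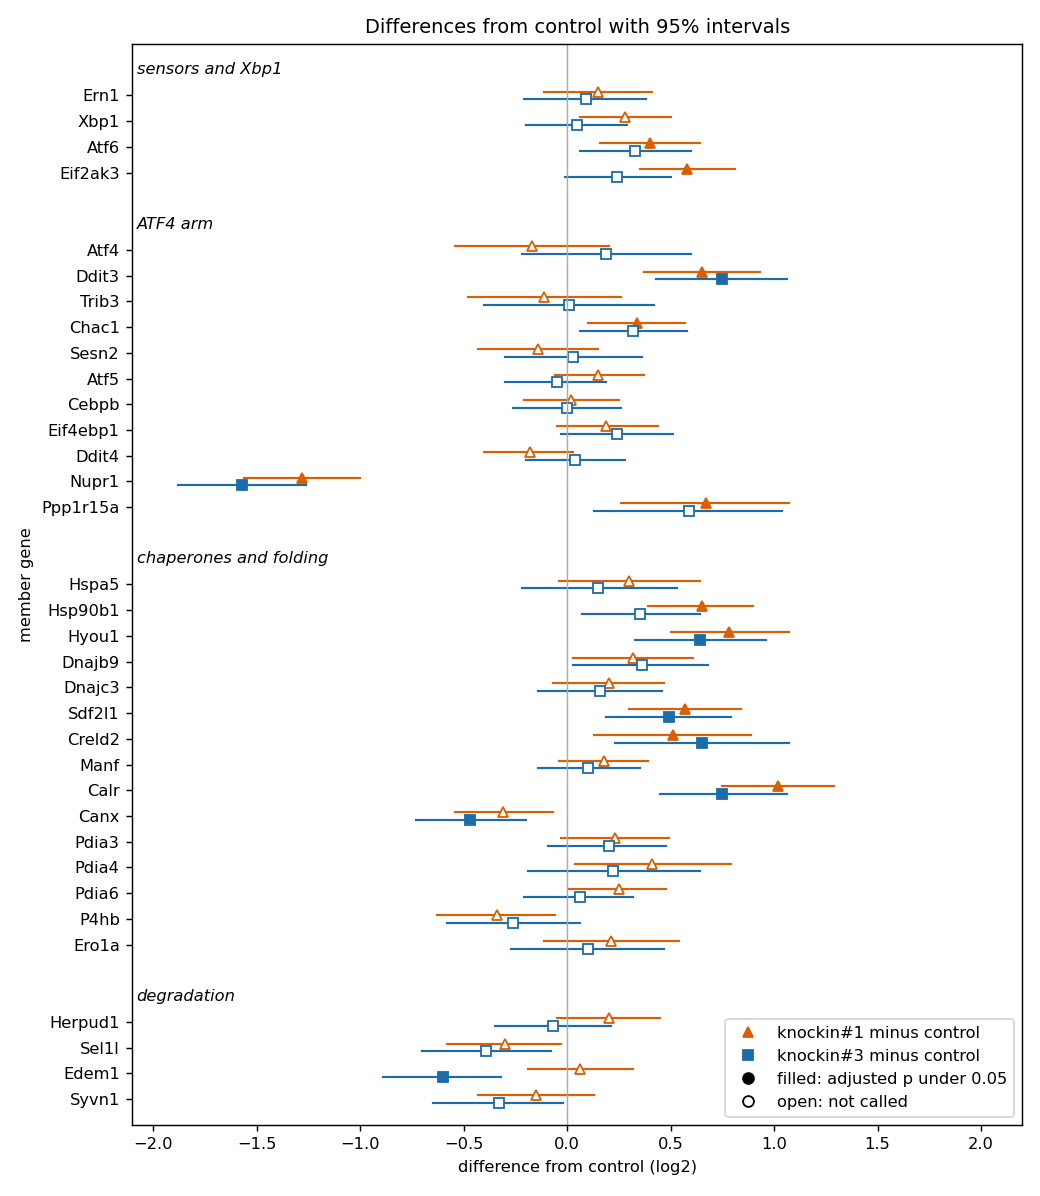
Difference of each clone from control (x axis, log2) with its 95% interval from limma for the 34 tested genes (y axis), filled where the adjusted p was under 0.05. Of the knockin#1 points 11 are filled and of the knockin#3 points 8, among them Nupr1 at -1.28 and -1.57 log2.

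The sensor genes were measured first. Eif2ak3, which encodes the eIF2 alpha kinase PERK, was at -0.10, -0.29 and -0.11 on the control arrays, 0.41, 0.39 and 0.42 on the knockin#1 arrays and 0.10 and 0.05 on the knockin#3 arrays. The 3 groups did not overlap, with knockin#3 between control and knockin#1. Eif2ak3 rose by 0.58 log2 in knockin#1 (SE 0.10, limma adjusted p = 0.00291, 1.49-fold) and differed by 0.24 log2 in knockin#3 without passing (SE 0.11, adjusted p = 0.138). The knockin#1 call of Eif2ak3 stood with the row block (0.58 log2, adjusted p = 0.0387) and was lost within row 1 (0.58 log2, adjusted p = 0.081).

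Atf6, the membrane-bound transcription factor gene, was at 2.02, 1.91 and 2.01 in the controls, 2.40, 2.50 and 2.24 in knockin#1 and 2.33 and 2.29 in knockin#3. Every knock-in array lay above every control. The gene rose by 0.40 log2 in knockin#1 (SE 0.11, limma adjusted p = 0.0215) and stood at 0.33 log2 in knockin#3 (SE 0.12, adjusted p = 0.0697). In knockin#1 the Atf6 call was lost under the row block (0.42 log2, adjusted p = 0.118), within row 1 (0.42 log2, adjusted p = 0.135), and without control replicate 2, knockin#1 replicate 1 or knockin#1 replicate 2 (adjusted p = 0.0692, 0.0583 and 0.0752). It also ended with no filter on dim probes (adjusted p = 0.0863).

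Ern1, the gene of the IRE1 nuclease, did not pass in either clone (0.15 log2, adjusted p = 0.385, and 0.09 log2, adjusted p = 0.666). Xbp1, whose message IRE1 splices, was at 3.80 ± 0.05 in the controls (SD, n = 3), 4.09 ± 0.08 in knockin#1 (SD, n = 3) and 3.85 ± 0.02 in knockin#3 (SD, n = 2). Its knockin#1 arrays lay above both other groups, but the difference of 0.28 log2 did not pass by limma (SE 0.10, adjusted p = 0.0555), and it did pass after quantile scaling (0.27 log2, adjusted p = 0.0475), after normexp background correction (0.29 log2, adjusted p = 0.0458) and with a variance trend (0.28 log2, adjusted p = 0.0257). In knockin#3 the Xbp1 difference was 0.05 log2 (adjusted p = 0.79). Of the 4 genes of this role, 2 were higher in knockin#1 (median 0.34 log2), where 14.7% of all features were higher and 16.5% lower. In knockin#3 limma called 0, against 13.3% higher and 17% lower of all features. There 1 was higher at an unadjusted p under 0.05, against 4564 of all 25352 features, and the median was 0.16 log2.

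The ATF4 arm was mixed. Atf4 itself was at 7.75, 7.43 and 7.45 in the controls, 7.07, 7.45 and 7.60 in knockin#1 and 7.69 and 7.77 in knockin#3, and the clones overlapped the controls. The differences were -0.17 log2 in knockin#1 (adjusted p = 0.482) and 0.19 log2 in knockin#3 (adjusted p = 0.472) by limma. A dimmer Atf4 probe gave 0.36 log2 (adjusted p = 0.0809) and 0.43 log2 (adjusted p = 0.0669), so the sign in knockin#1 depended on the probe, and neither probe passed.

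Ddit3, the gene of the CHOP transcription factor that acts downstream of ATF4, was at 2.64, 2.56 and 2.80 in the controls. It was at 3.36, 3.17 and 3.42 in knockin#1 and 3.29 and 3.53 in knockin#3, so that all knock-in arrays lay above all controls. Ddit3 rose by 0.65 log2 in knockin#1 (SE 0.12, limma adjusted p = 0.00464, 1.57-fold) and by 0.75 log2 in knockin#3 (SE 0.14, adjusted p = 0.00461, 1.68-fold). With the row as a block the values were 0.70 log2 (adjusted p = 0.0414) and 0.81 log2 (adjusted p = 0.0938), which ended the knockin#3 call, and within row 1 the knockin#1 value was 0.70 log2 (adjusted p = 0.055).

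Ppp1r15a encodes GADD34, which directs a phosphatase to eIF2 alpha and so reverses the action of PERK. It was at 5.03, 4.47 and 5.16 in the controls, 5.57, 5.66 and 5.43 in knockin#1 and 5.45 and 5.50 in knockin#3. The controls spread widely, with replicate 2 low, but stayed below every knock-in array. Ppp1r15a rose by 0.67 log2 in knockin#1 (SE 0.18, limma adjusted p = 0.0212), and its difference of 0.59 log2 in knockin#3 missed the threshold (SE 0.20, adjusted p = 0.0546). The knockin#1 call was lost under the row block (0.69 log2, adjusted p = 0.128), within row 1 (0.69 log2, adjusted p = 0.186), with no filter on dim probes (adjusted p = 0.0711) and without knockin#1 replicate 1 or 2 (adjusted p = 0.0565 and 0.0667). The knockin#3 difference passed without control replicate 3 (0.72 log2, adjusted p = 0.0356), after quantile scaling (0.61 log2, adjusted p = 0.0431), median scaling (0.67 log2, adjusted p = 0.0215) and normexp (0.66 log2, adjusted p = 0.0201).

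Chac1, which encodes an enzyme that degrades glutathione and is an ATF4 target, was at 5.31, 5.38 and 5.40 in the controls, 5.59, 5.73 and 5.80 in knockin#1 and 5.72 and 5.65 in knockin#3. The knock-in arrays all lay above the controls by a small margin. Chac1 rose by 0.34 log2 in knockin#1 (SE 0.10, limma adjusted p = 0.0357) and stood at 0.32 log2 in knockin#3 (SE 0.11, adjusted p = 0.0681). The Chac1 call was lost under the row block (0.22 log2, adjusted p = 0.345) and within row 1 (0.22 log2, adjusted p = 0.392). It also ended without any 1 of the 3 controls (adjusted p = 0.0678 to 0.101) or without knockin#1 replicate 2 or 3 (adjusted p = 0.0935 and 0.111), and with normexp (adjusted p = 0.0505), median scaling (adjusted p = 0.071) or no filter on dim probes (adjusted p = 0.128).

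On the brightest probes Nupr1 had the largest difference from control of the 34 genes in each clone. It was at 3.98, 3.91 and 4.05 in the controls, 2.70, 2.90 and 2.51 in knockin#1 and 2.40 and 2.43 in knockin#3, so every knock-in array lay far below the controls. Nupr1 fell by 1.28 log2 in knockin#1 (SE 0.12, limma adjusted p = 0.000109, 2.43-fold) and by 1.57 log2 in knockin#3 (SE 0.14, adjusted p = 8.24e-05, 2.96-fold). Under the row block it was at -1.28 log2 (adjusted p = 0.00379) and -1.56 log2 (adjusted p = 0.0093), and it was the only stress gene called in knockin#3 with that block. Nupr1 fell while Chac1 rose in knockin#1, and both promoters printed above hold the same CARE letters, TTGCATCA on the strand of the gene.

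The other ATF4-arm genes did not pass in either clone. Trib3, a pseudokinase gene that ATF4 and CHOP induce, differed by -0.11 and 0.01 log2 (limma adjusted p = 0.667 and 0.973), and its knockin#1 replicate 1 at 5.87 lay below replicates 2 and 3 at 6.49 and 6.36. Eif4ebp1, the gene of a translation inhibitor, differed by 0.19 and 0.24 log2 (adjusted p = 0.217 and 0.17), and Ddit4, an inhibitor of mTORC1 signalling, by -0.18 and 0.04 log2 (adjusted p = 0.181 and 0.793). Sesn2, a stress-induced sestrin gene, differed by -0.14 and 0.03 log2 (adjusted p = 0.473 and 0.903). The transcription factor genes Atf5 (0.15 and -0.05 log2, adjusted p = 0.272 and 0.742) and Cebpb (0.02 and 0.00 log2, adjusted p = 0.93 and 0.993) did not pass either, and a second Atf5 probe gave 0.36 and 0.02 log2. Of the 11 tested genes of this role 3 were higher and 1 lower in knockin#1, with a median of 0.02 log2. In knockin#3 1 was higher and 1 lower, with a median of 0.04 log2. The totals of 36.4% and 18.2% called stood against 31.1% and 30.2% of all features. Levels did not overlap the controls for 7 of the 11 in knockin#1 and 5 in knockin#3, against 46.5% and 55.7% of all features.

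**Figure D3:**
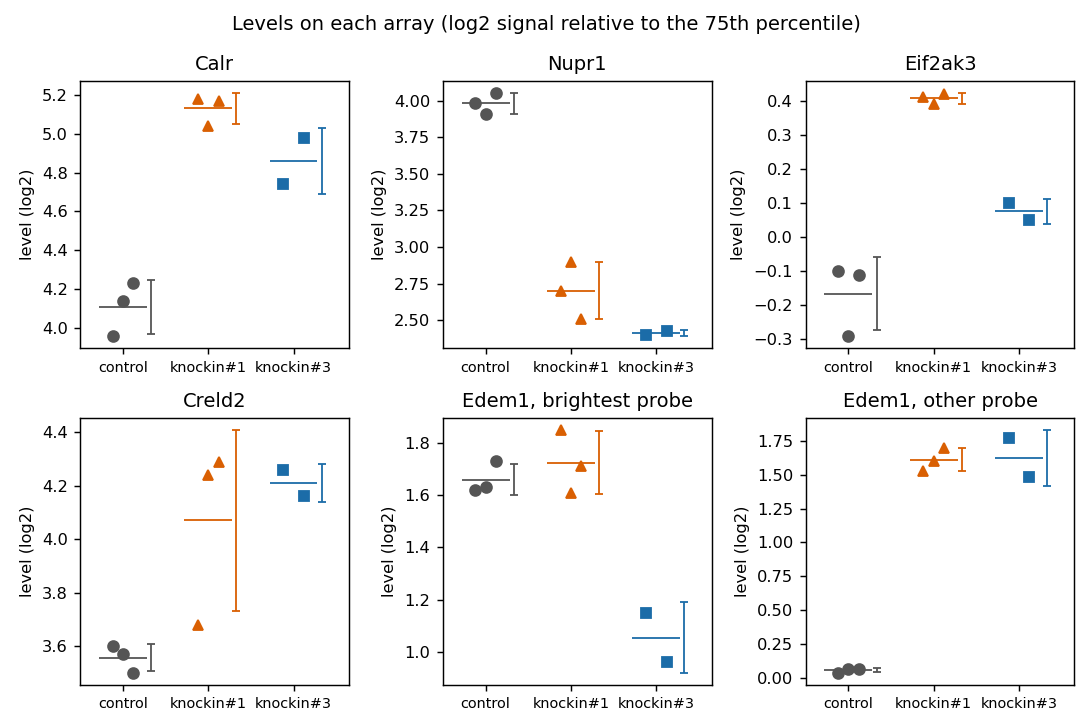
Levels of 5 stress genes on each array (y axis, log2 signal minus the array's 75th percentile; points are arrays, lines are group means and bars are 1 SD), with both Edem1 probes. Calr rose and Nupr1 fell in both clones, the single low knockin#1 point of Creld2 is its row 1 array, and the Edem1 probes disagree.

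Among the chaperones Calr, the calreticulin gene, had the largest difference. It was at 3.96, 4.14 and 4.23 in the controls, 5.18, 5.04 and 5.17 in knockin#1 and 4.74 and 4.98 in knockin#3, with no overlap between any groups. Calr rose by 1.02 log2 in knockin#1 (SE 0.12, limma adjusted p = 0.00036, 2.03-fold) and by 0.75 log2 in knockin#3 (SE 0.13, adjusted p = 0.0036, 1.69-fold). With the row as a block the differences were 1.07 log2 (adjusted p = 0.0071) and 0.83 log2 (adjusted p = 0.0786), so the knockin#3 call ended there.

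Canx encodes calnexin, the membrane-bound relative of calreticulin, and did not follow it. Its brightest probe was at 6.03, 5.94 and 6.19 in the controls, 5.77, 5.74 and 5.73 in knockin#1 and 5.62 and 5.55 in knockin#3, so every knock-in array lay below the controls. Canx fell by 0.47 log2 in knockin#3 (SE 0.12, limma adjusted p = 0.0173) and stood at -0.31 log2 in knockin#1 (SE 0.10, adjusted p = 0.0557). Both gene promoters hold an ERSE match. Its other probe gave -0.03 and -0.07 log2 (adjusted p = 0.913 and 0.842), and the knockin#3 call was also lost under the row block (-0.43 log2, adjusted p = 0.258), with median scaling (-0.38 log2, adjusted p = 0.0701), with no filter on dim probes (adjusted p = 0.0728) and without knockin#3 replicate 2 (-0.43 log2, adjusted p = 0.0881).

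Hsp90b1 encodes GRP94, the HSP90 of the endoplasmic reticulum. It was at 5.93, 5.74 and 5.83 in the controls, 6.54, 6.50 and 6.39 in knockin#1 and 6.06 and 6.30 in knockin#3, and knockin#3 lay between the other groups. Hsp90b1 rose by 0.65 log2 in knockin#1 (SE 0.11, limma adjusted p = 0.00284, 1.57-fold), also with the row as a block (0.71 log2, adjusted p = 0.0257). In knockin#3 its 0.35 log2 did not pass (SE 0.13, adjusted p = 0.0645), and it passed with quantile scaling (0.39 log2, adjusted p = 0.0477) and median scaling (0.44 log2, adjusted p = 0.0377).

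Hyou1 encodes a large chaperone that acts as exchange factor for BiP. It was at -1.12, -1.15 and -0.94 in the controls, -0.20, -0.41 and -0.25 in knockin#1 and -0.29 and -0.57 in knockin#3, with all knock-in arrays above the controls. Hyou1 rose by 0.78 log2 in knockin#1 (SE 0.12, limma adjusted p = 0.00177, 1.72-fold) and by 0.64 log2 in knockin#3 (SE 0.14, adjusted p = 0.009, 1.56-fold). Its other probes gave 0.43 and 0.56 log2 in knockin#1 and 0.26 and 0.50 log2 in knockin#3. The knockin#3 call was lost under the row block (0.77 log2, adjusted p = 0.103), on the second brightest probe (0.50 log2, adjusted p = 0.0625) and without knockin#3 replicate 1 (0.50 log2, adjusted p = 0.062), while the knockin#1 call stood with the block (0.87 log2, adjusted p = 0.0174).

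Sdf2l1, the gene of a BiP cofactor, was at 1.93, 1.85 and 1.95 in the controls, 2.60, 2.50 and 2.32 in knockin#1 and 2.28 and 2.52 in knockin#3. No knock-in array overlapped the controls. Sdf2l1 rose by 0.57 log2 in knockin#1 (SE 0.12, limma adjusted p = 0.00705) and by 0.49 log2 in knockin#3 (SE 0.13, adjusted p = 0.0229). In knockin#3 that call was lost under the row block (0.68 log2, adjusted p = 0.109) and without control replicate 1, control replicate 2 or knockin#3 replicate 2 (adjusted p = 0.0525, 0.0633 and 0.147), and with no filter on dim probes (adjusted p = 0.0856).

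Creld2, a secreted disulfide isomerase gene, was at 3.60, 3.57 and 3.50 in the controls, 3.68, 4.24 and 4.29 in knockin#1 and 4.26 and 4.16 in knockin#3. The row 1 array of knockin#1 lay just above the controls of the same row, and the 4 arrays of row 2 lay together above it. Creld2 rose by 0.51 log2 in knockin#1 (SE 0.17, limma adjusted p = 0.0457) and by 0.65 log2 in knockin#3 (SE 0.18, adjusted p = 0.0288), but with the row as a block the differences were 0.12 log2 (adjusted p = 0.635) and 0.06 log2 (adjusted p = 0.877). Within row 1 the knockin#1 difference was 0.12 log2 (adjusted p = 0.649). The row 1 array of knockin#1 is also the one whose brightest spike-in signal was 2784, and its part in these values was not tested. For Creld2 the array row and the knock-in cannot be told apart, since 4 of the 5 knock-in arrays lay in row 2 and none of the controls did. Its knockin#1 call also ended without any 1 array other than knockin#1 replicate 1 (adjusted p = 0.06 to 0.143), and its knockin#3 call without any 1 control or any 1 knockin#3 array (adjusted p = 0.0597 to 0.122). With no filter on dim probes neither clone passed (adjusted p = 0.132 and 0.0913), and with median scaling knockin#1 did not (adjusted p = 0.0522).

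Hspa5 encodes BiP, the central chaperone of the compartment and a common marker of its stress. On its brightest probe Hspa5 was at 6.17, 5.92 and 5.96 in the controls, 6.02, 6.45 and 6.48 in knockin#1 and 6.12 and 6.21 in knockin#3. Both clones overlapped the controls on that probe. On the second brightest probe only knockin#1 stood apart from the controls. The dimmest probe read 3.51, 3.60 and 3.54 in the controls, 3.86, 4.02 and 3.82 in knockin#1 and 3.68 and 3.78 in knockin#3, without overlap with the controls. Hspa5 did not pass in knockin#1 (0.30 log2, SE 0.15, limma adjusted p = 0.165) or in knockin#3 (0.15 log2, SE 0.16, adjusted p = 0.533). Its 3 probes gave 0.30 to 0.37 log2 in knockin#1 and 0.15 to 0.18 log2 in knockin#3. The knockin#1 difference passed for the mean of the probes (0.34 log2, adjusted p = 0.0296) and without knockin#1 replicate 1 (0.45 log2, adjusted p = 0.0362).

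The remaining chaperone and folding genes did not pass in either clone by limma on the brightest probe. Of the BiP partners of the J-domain family, Dnajb9 differed by 0.32 and 0.36 log2 (adjusted p = 0.088 and 0.0918), and its second probe passed with 0.80 and 0.63 log2 (adjusted p = 0.00664 and 0.0312), while Dnajc3 differed by 0.20 and 0.16 log2 (adjusted p = 0.242 and 0.409). Among disulfide isomerase genes, Pdia4 differed by 0.41 and 0.22 log2 (adjusted p = 0.0908 and 0.405), Pdia6 by 0.25 and 0.06 log2 (adjusted p = 0.103 and 0.762) and Pdia3 by 0.23 and 0.20 log2 (adjusted p = 0.163 and 0.278). P4hb, the gene of the first described isomerase of the family, differed in the other direction, by -0.34 and -0.26 log2 (adjusted p = 0.071 and 0.199). The oxidase gene Ero1a, listed under its older name Ero1l, differed by 0.21 and 0.10 log2 (adjusted p = 0.31 and 0.688) and the secreted factor gene Manf by 0.18 and 0.10 log2 (adjusted p = 0.205 and 0.511).

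Of the 15 chaperone and folding genes, 5 were higher and 0 lower in knockin#1 by limma, and the median was 0.30 log2. At an unadjusted p under 0.05, 8 were higher and 2 lower, against 4790 and 5600 of all 25352 features. In knockin#3 4 were higher and 1 lower, Canx on its brightest probe, with a median of 0.20 log2. The total of 33.3% called in each clone was near the 31.1% and 30.2% of all features. Of all features 14.7% were higher and 16.5% lower in knockin#1, and 13.3% and 17% in knockin#3. Blocked on the row, 4 of the 15 were higher in knockin#1 (median 0.17 log2) and 0 in knockin#3 (median 0.12 log2), where 17.2% and 8.16% of all features were called. Of the 9 genes with an ERSE match 8 were tested, and of these 3 were higher and 0 lower in knockin#1 (median 0.28 log2) and 2 higher and 1 lower in knockin#3 (median 0.16 log2). The 22 other tested genes with a promoter in the table held 5 higher and 1 lower in knockin#1 (median 0.18 log2) and 2 higher and 2 lower in knockin#3 (median 0.07 log2).

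Degradation factors carry misfolded proteins out of the endoplasmic reticulum to the proteasome. Edem1, a lectin-like gene of this route, had 2 probes that went against each other. The brightest read 1.62, 1.63 and 1.73 in the controls, 1.85, 1.61 and 1.71 in knockin#1 and 1.15 and 0.96 in knockin#3, so only knockin#3 stood apart. By that probe Edem1 differed by 0.06 log2 in knockin#1 (SE 0.11, limma adjusted p = 0.729) and fell by 0.60 log2 in knockin#3 (SE 0.12, adjusted p = 0.00727).

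The other Edem1 probe read 0.04, 0.07 and 0.07 in the controls, 1.53, 1.60 and 1.70 in knockin#1 and 1.77 and 1.48 in knockin#3. Here both clones lay far above the controls. That probe was higher by 1.55 log2 in knockin#1 (limma adjusted p = 2.34e-05) and by 1.57 log2 in knockin#3 (adjusted p = 5.53e-05), and the mean of both probes gave 0.81 log2 (adjusted p = 0.000528) and 0.48 log2 (adjusted p = 0.0124). Both probes carry the same transcript accession, so no direction of the Edem1 transcript as a whole can be given. The knockin#3 fall on the brightest probe also ended with the row as a block (-0.41 log2, adjusted p = 0.273) and without knockin#3 replicate 2 (-0.51 log2, adjusted p = 0.0551).

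Sel1l and Syvn1 encode the scaffold and the ubiquitin ligase of the main degradation complex, and Herpud1 a membrane protein that joins it. Sel1l was at 4.61 ± 0.13 in the controls (SD, n = 3), 4.30 ± 0.15 in knockin#1 (SD, n = 3) and 4.22 ± 0.10 in knockin#3 (SD, n = 2). Its differences of -0.30 and -0.39 log2 did not pass (limma adjusted p = 0.0951 and 0.0619), although the knockin#3 value passed with quantile scaling (-0.40 log2, adjusted p = 0.0469) and normexp (-0.42 log2, adjusted p = 0.019). Syvn1 differed by -0.15 and -0.33 log2 (adjusted p = 0.417 and 0.102). Herpud1, whose promoter holds an ERSE-II and a CARE match, differed by 0.20 and -0.07 log2 (adjusted p = 0.216 and 0.721), and its second probe by -0.04 and -0.18 log2. The dimmer Sel1l probe gave 0.00 and -0.16 log2. Of the 4 tested degradation genes limma called 0 in knockin#1, with 1 lower at an unadjusted p under 0.05 and a median of -0.04 log2. In knockin#3 it called 1 lower, Edem1 on its brightest probe, with 3 lower at an unadjusted p under 0.05 and a median of -0.36 log2. The other Edem1 probe was higher in both clones, so the counts and medians of this role depend on the probe. Among all 25352 features, 16.5% were called lower in knockin#1 and 17% in knockin#3. At the unadjusted threshold 5600 and 5865 of them were lower.

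**Figure D4:**
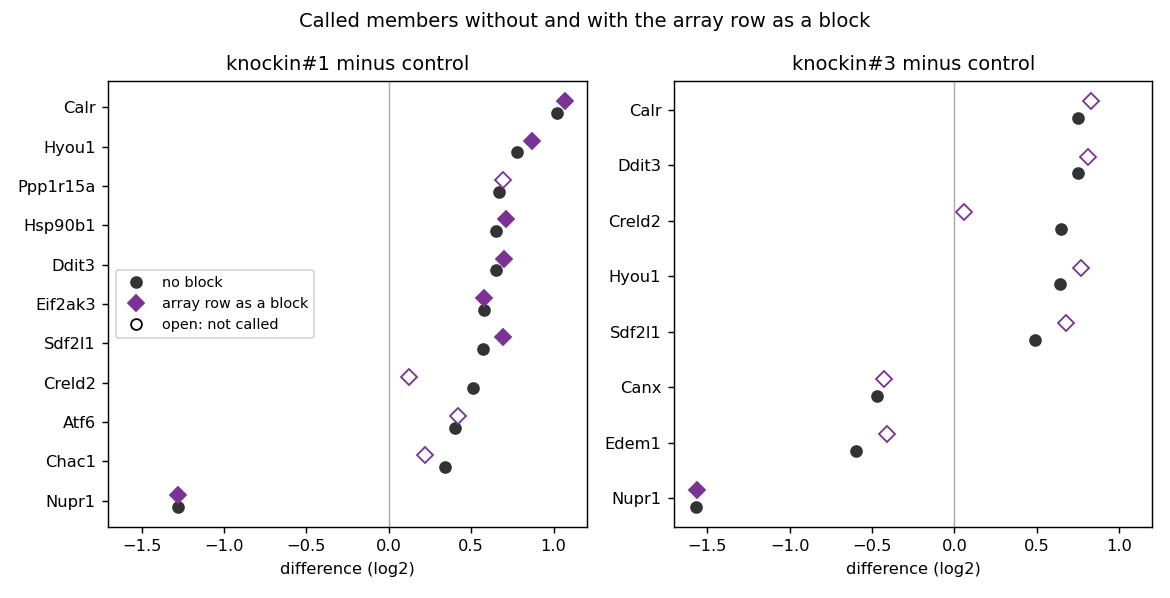
Difference from control (x axis, log2) of each called stress gene (y axis) without a block (black circles) and with the array row as a block (purple diamonds), open where the adjusted p was not under 0.05. With the block 7 of 11 knockin#1 calls and 1 of 8 knockin#3 calls stayed filled, and Creld2 moved nearly to 0.

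The array row bears on the counts above. Blocked on the row, 7 of the 34 genes were called in knockin#1, 6 higher and 1 lower, at a median of 0.17 log2. Within row 1, where the same single knock-in array gives the same differences over fewer arrays and 14.2% of all features were called, 5 were called, 4 higher and 1 lower. In knockin#3, which had no array in the row of the controls, 1 gene was called with the block, at a median of 0.05 log2. These blocked knockin#3 values also hang on knockin#1 replicate 1, through which alone the row effect was estimated against the other knockin#1 arrays. No within-row value could be had for knockin#3 against control. In row 2 the brightest Edem1 probe differed by -0.60 log2 between the clones (limma adjusted p = 0.706).

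Other genes of the same pathways were counted next, from lists of pathway members. The lists were chosen with earlier results of these data known, so their shares called are descriptions and no test. The amino acid genes that ATF4 drives were never called higher. Of 17 tested, 0 were higher and 5 lower in each clone, at medians of -0.20 and -0.19 log2 in knockin#1 and knockin#3. That is 29.4% lower in each clone, against 16.5% and 17% of all features, of which 14.7% and 13.3% were higher. At an unadjusted p under 0.05, 0 were higher and 6 lower in either clone. All 25352 features held 4790 higher and 5600 lower in knockin#1 and 4564 and 5865 in knockin#3 at that threshold. Slc7a11, the cystine carrier gene, fell by 0.65 log2 in knockin#1 (SE 0.12, limma adjusted p = 0.00352) and by 0.62 log2 in knockin#3 (SE 0.13, adjusted p = 0.00849), and Slc7a3, a cationic amino acid carrier gene, by 0.61 and 0.63 log2 (adjusted p = 0.0171 and 0.0245). In knockin#1 the serine synthesis gene Psph fell by 0.41 log2 (adjusted p = 0.0178) and the mitochondrial one-carbon gene Shmt2 by 0.37 log2 (adjusted p = 0.0204). In knockin#3 the glycine carrier gene Slc6a9 fell by 0.74 log2 (adjusted p = 0.0214) and Asns, the asparagine synthetase gene, by 0.66 log2 (adjusted p = 0.0255). The second Asns probe gave 0.01 log2 in knockin#3 (adjusted p = 0.968) and the second Shmt2 probe -0.33 log2 in knockin#1 (adjusted p = 0.134). Under the row block 1 of the 17, Psph, was lower in knockin#1 and 0 in knockin#3.

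Aminoacyl-tRNA synthetases charge tRNAs, and their genes are also ATF4 targets. Their list also holds Xpot, a tRNA export gene. Of 13 tested, 1 was higher and 1 lower in knockin#1 and 1 higher and 0 lower in knockin#3, at medians of -0.06 and -0.03 log2. The shares called were 15.4% and 7.69%, against 31.1% and 30.2% of all features. Wars, for tryptophan, rose by 0.81 and 0.75 log2 (limma adjusted p = 0.00045 and 0.00144), and Sars, for serine, fell by 0.39 log2 in knockin#1 (adjusted p = 0.0371). The knockin#3 call of Wars and the call of Sars ended with the row block (adjusted p = 0.067 and 0.131).

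Further factors and outputs of the ATF4 arm moved both ways. Of 14 tested, 13 were above background on all arrays. Of these, 4 were higher and 2 lower in knockin#1 (median 0.07 log2) and 4 higher and 3 lower in knockin#3 (median 0.18 log2). The shares of the 13 called were 46.2% and 53.8%, against 31.1% and 30.2% of all features. The other gene of the 14, Vldlr, a lipoprotein receptor gene, was not well above background on any control array (-5.26, -5.13 and -6.09). It was above background on all knock-in arrays (3.42, 3.27 and 3.35 in knockin#1, 3.01 and 3.20 in knockin#3). Vldlr was tested only through the groups where it is high, so no difference is given for it. Gdf15, a secreted stress hormone gene, was at -0.15, 0.19 and 0.30 in the controls, 1.86, 1.91 and 1.93 in knockin#1 and 1.87 and 1.77 in knockin#3, so the clones overlapped each other and lay well above the controls. It rose by 1.79 and 1.70 log2 (limma adjusted p = 2.57e-05 and 8.23e-05), and Avil, an actin regulator gene, by 1.51 and 1.30 log2 (adjusted p = 1.83e-05 and 0.000102). Tnfrsf10b, the death receptor gene, rose by 0.62 and 0.38 log2 (adjusted p = 0.00335 and 0.0465), the latter lost with the row block (adjusted p = 0.223). Fgf21, another stress hormone gene, fell by 0.82 log2 in knockin#3 (adjusted p = 0.00168), a call that ended with the row block (adjusted p = 0.0533).

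Among eIF2 alpha kinases and eIF2 factors, 1 of 11 was higher and 4 lower in knockin#1 (median 0.05 log2) and 2 higher and 3 lower in knockin#3 (median 0.19 log2). In each clone 45.5% were called, against 31.1% and 30.2% of all features. Eif2b4, a subunit of the exchange factor that phosphorylated eIF2 alpha inhibits, was at 3.44 ± 0.03 in the controls (SD, n = 3), 2.83 ± 0.07 in knockin#1 (SD, n = 3) and 2.33 ± 0.12 in knockin#3 (SD, n = 2). It fell by 0.60 and 1.11 log2 (limma adjusted p = 0.00231 and 0.000195), also with the row block (adjusted p = 0.0358 and 0.0183). The subunit gene Eif2b3 fell by 0.46 and 0.41 log2 (adjusted p = 0.0202 and 0.0467) and Eif2b5 by 0.46 log2 in knockin#1 (adjusted p = 0.0281). Eif2ak2, the double-stranded RNA kinase gene, rose by 0.35 and 0.59 log2 (adjusted p = 0.0409 and 0.00741), and Eif2ak4, the amino acid sensing kinase gene, fell by 0.30 and 0.46 log2 (adjusted p = 0.0471 and 0.0154). All of these calls but those of Eif2b4 ended under the row block.

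Relatives of ATF6 and the proteins that process it or bind ERSE held 5 higher and 2 lower of 13 in knockin#1 (median 0.29 log2). In knockin#3 they held 3 higher and 2 lower (median 0.23 log2). The shares called, which count the edited gene Gtf2i in each clone, were 53.8% and 38.5%, against 31.1% and 30.2% of all features. The membrane-bound factor genes Creb3l2 (1.11 and 0.78 log2, limma adjusted p = 0.000205 and 0.00281) and Creb3l4 (0.90 and 0.78 log2, adjusted p = 0.00154 and 0.0061) rose. Yy1, which encodes a zinc finger factor that binds ERSE, rose by 0.57 and 0.69 log2 (adjusted p = 0.00256 and 0.00193), and Nfyc, a subunit gene of the CCAAT-binding factor NF-Y, fell by 0.54 log2 in knockin#1 (adjusted p = 0.0078). Creb3l3 fell by 0.66 log2 in knockin#3 (adjusted p = 0.0429), and Gtf2i itself, which is in this list, was the other lower gene in each clone. Under the row block Creb3l4 (adjusted p = 0.113), Yy1 (adjusted p = 0.0744) and Creb3l3 (adjusted p = 0.496) lost their knockin#3 calls. Gtf2i lost its call in both clones with that block, at -0.44 log2 in knockin#1 (limma adjusted p = 0.0789) and -0.56 log2 in knockin#3 (adjusted p = 0.125).

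Of other folding and glycoprotein quality control genes 30 were tested, 29 of them above background on all arrays. The 29 held 3 higher and 7 lower in knockin#1 (median -0.09 log2) and 3 higher and 3 lower in knockin#3 (median -0.20 log2). The shares of the 29 called were 34.5% and 20.7%, against 31.1% and 30.2% of all features. Fkbp7, a prolyl isomerase gene, rose by 1.22 and 1.43 log2 (limma adjusted p = 0.000459 and 0.00042), also with the row block (adjusted p = 0.0138 and 0.0394). Dnajc1 fell by 0.94 and 0.93 log2 (adjusted p = 0.000405 and 0.000903). Creld1, the relative of Creld2, fell by 1.19 and 1.64 log2 (adjusted p = 0.00438 and 0.00179), and by 0.63 and 0.80 log2 with the row block (adjusted p = 0.0456 and 0.0817). The knockin#3 call of Dnajc1 (adjusted p = 0.0655) ended with that block. Ero1b, the second oxidase gene, was above background on 2 of 3 control arrays (-4.44, -4.26 and -5.20, the last not above it) and on all knock-in arrays (-3.50, -3.35 and -3.23 in knockin#1, -3.03 and -2.96 in knockin#3). It was tested only through the groups where it is high, so no difference is given for it.

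Genes for translocation into the endoplasmic reticulum and for N-glycosylation held 1 higher and 7 lower of 25 in knockin#1 (median -0.17 log2). In knockin#3 they held 2 higher and 6 lower (median -0.24 log2). In each clone 32% were called, against 31.1% and 30.2% of all features. Srp54a, a subunit gene of the signal recognition particle, fell by 0.63 and 0.68 log2 (limma adjusted p = 0.00261 and 0.00353), also with the row block (adjusted p = 0.0142 and 0.0402). Sec61g, a channel subunit gene, and Ddost, of the oligosaccharyl transferase, fell by 0.62 and 0.56 log2 in knockin#1 (adjusted p = 0.00132 and 0.00325) and by 0.55 and 0.51 log2 in knockin#3 (adjusted p = 0.00468 and 0.0101), where the row block ended both calls (adjusted p = 0.0956 and 0.199). Sec63 fell by 0.62 log2 in each clone (adjusted p = 0.00231 and 0.00456), but its second probe gave 0.01 and -0.06 log2 (adjusted p = 0.97 and 0.827). In knockin#3 the signal peptidase gene Spcs1 rose by 0.64 log2 (adjusted p = 0.021) and the receptor subunit gene Srprb fell by 0.57 log2 (adjusted p = 0.0467), both lost with the row block (adjusted p = 0.332 and 0.298), as was the Sec63 call in knockin#3 (adjusted p = 0.0776). The second Srprb probe gave -0.15 log2 in knockin#3 (adjusted p = 0.509).

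Other degradation factors held 7 higher and 4 lower of 26 in knockin#1 (median 0.22 log2) and 7 higher and 4 lower in knockin#3 (median 0.10 log2). In each clone 42.3% were called, against 31.1% and 30.2% of all features. Derl1, a derlin gene, was at 1.91, 1.97 and 2.07 in the controls, 2.79, 2.75 and 2.86 in knockin#1 and 2.88 and 2.83 in knockin#3, with the clones overlapping each other well above the controls. Derl1 rose by 0.81 and 0.87 log2 (limma adjusted p = 0.000439 and 0.000663), also with the row block (adjusted p = 0.0108 and 0.0413). Fam8a1, a cofactor gene of the ligase complex, rose by 1.15 and 0.90 log2 (adjusted p = 0.00054 and 0.00379), and Edem2, the mannosidase relative of Edem1, by 0.76 log2 in each clone (adjusted p = 0.00129 and 0.0026), with 0.37 log2 on its second probe in knockin#3 (adjusted p = 0.111). Herpud2, the relative of Herpud1, rose by 1.21 log2 in knockin#1 (adjusted p = 0.00212), and Erlin1 fell by 0.65 and 0.79 log2 (adjusted p = 0.00317 and 0.0023). Under the row block 5 of the 26 were higher and 3 lower in knockin#1 and 1 higher and 0 lower in knockin#3, which ended the knockin#3 calls of Fam8a1, Edem2 and Erlin1 (adjusted p = 0.131, 0.145 and 0.135) and the knockin#1 call of Erlin1 (adjusted p = 0.064).

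**Figure D5:**
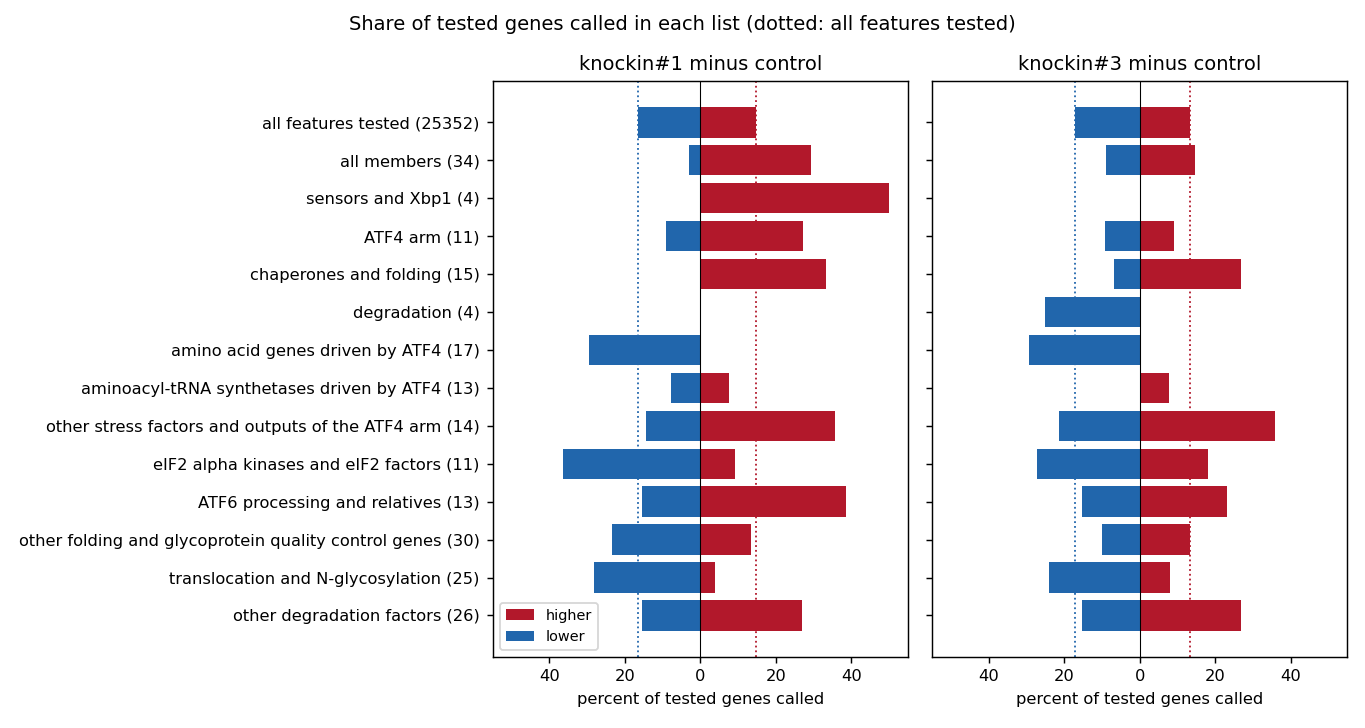
Percent of tested genes called higher (red, right) and lower (blue, left) in each list (y axis, number tested in brackets) against control, with dotted lines at 14.7% and 16.5% for knockin#1 and 13.3% and 17% for knockin#3, the shares of all features; Vldlr and Ero1b, not above background on every control array, are included. The amino acid genes have no red bar in either panel, and the 4 roles of the stress genes differ in their balance.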

How the data were processed

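RNA of 3 control, 3 knockin#1 and 2 knockin#3 arrays was measured. The authors deposited each spot's intensity, linear and already corrected for background by Feature Extraction (version 11.5.1.1 per the file headers, 11.5.11 per the submitters' processing notes). Between 114 and 242 spots of an array that carried an outlier flag were dropped. The log2 of the rest was averaged per probe and reduced by the array's 75th percentile (268.4 to 376.6). Probes were named by transcript accession through RefSeq names of GRCm38.p6 (32994 of 56605 with a symbol), and the brightest probe stood for its gene. The headers name an older build, so no probe coordinates are given. Limma 3.58.1 in R 4.3.3 (lmFit, contrasts, eBayes, two-sided) fitted the 3 groups together, with 5 residual and 3.38 prior degrees of freedom and Benjamini-Hochberg adjustment over 25352 features at a threshold of 0.05. The fit was tested on simulated data. Intervals are 95%. Members and lists were chosen with earlier results of these data known. Every member is described, and of each further list up to 4 passing genes with the largest absolute difference. Alternatives were normexp with offset 50 (on the median signal), quantile and median scaling, other filters, other probe rules, a variance trend, the array row as a block or alone, and each array left out.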

Additional observations from a re-analysis of the deposited data

How the results depend on the processing

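Among the 34 tested stress genes 11 were called in knockin#1 (10 higher, 1 lower) and 8 in knockin#3 (5 higher, 3 lower). With no filter, which tested all 36, these became 7 (6 higher) and 5 (3 higher), while the share of all features called went from 31.1% and 30.2% to 11.9% and 11.2%. Blocked on the array row they became 7 (6 higher) and 1 (0 higher, 1 lower), and within row 1 the knockin#1 count was 5 (4 higher). The knockin#1 count of lower genes became 2 with normexp, 2 with the filter on all 8 arrays and 4 with the variance trend. Median scaling made 8 higher in knockin#3. The mean of the probes and the second brightest probe each left 1 lower in knockin#3. The variance trend called 1 gene lower between the clones, Edem1 on its brightest probe (-0.66 log2, limma adjusted p = 0.0367). The other Edem1 probe differed by 0.01 log2 between the clones. The median over the genes in knockin#1, 0.21 log2, became 0.28 log2 on the second brightest probe. In knockin#3 it went from 0.13 log2 to 0.21 with median scaling, 0.19 on the second brightest probe and 0.05 with the row as a block. The knockin#3 difference of Edem1 reversed to 0.48 log2 for the mean of the probes and 1.57 log2 on the second. The cause of these changes was not tested.

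Leaving out each array in turn gave 7 to 10 calls in knockin#1 (6 to 9 higher, 1 to 2 lower, median 0.17 to 0.26 log2), where 24.5% to 31.3% of all features were called. In knockin#3 it gave 4 to 8 calls (3 to 5 higher, 1 to 3 lower, median 0.11 to 0.14 log2), where 20.3% to 29.4% of all features were called, and between the clones 0 to 0 (median -0.1 to -0.05 log2). In knockin#1, without replicate 2 there were 7 calls, and without control replicate 2 there were 2 lower. In knockin#3, without control replicate 1, control replicate 2 or knockin#3 replicate 1 there were 3 higher, and without knockin#3 replicate 2 there were 4 calls (3 higher, 1 lower; 20.3% of all features). A group left with 1 array was assumed to vary like the others. No paired analysis was possible because the labels carry no replicate numbers shared between groups. The brightest probe was above background on all 8 arrays for each of the 34 genes, so signal over background limits only Stc2 and Derl3.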
